A study of Mus musculus with 17 samples.

Results

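The genes described here are 10 members of the autophagy and lysosome system that are linked to the transcription factors FoxO or TFEB in muscle. They were taken by symbol from a named list, and all 10 were found among the 36172 gene rows of the deposited table: Ulk1, Becn1, Map1lc3a, Map1lc3b, Gabarapl1, Sqstm1, Bnip3, Ctsl, Lamp2 and Tfeb. RNA was sequenced from the extensor digitorum longus (EDL), a fast muscle of the lower leg, of 17 old mice. Of these, 7 had been treated with a Hand2 vector and 10 with an empty vector. The protein Hand2 directs the fate of sympathetic nerve cells, and the study's title concerns those cells and the loss of muscle with age. The Hand2 group held 3 males and 4 females, of which 4 animals were 22 and 3 were 23 months old. The empty-vector group held 5 males and 5 females, of which 3 animals were 22 and 7 were 23 months old. The sources used here do not state the strain, the kind of vector, its promoter, its route or the time since treatment. Each library has a title of its own and is taken here as 1 animal; some title numbers recur between groups and sexes, and the labels do not say what they count. P-values weigh a difference against the spread between these samples, and an animal without a vector was not analysed here. In the text, animals are numbered 1 to 7 in the Hand2 group and 1 to 10 in the empty-vector group.

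Autophagy encloses cytoplasm, damaged mitochondria or protein aggregates in a double membrane and delivers them to lysosomes, where acid hydrolases break them down. In skeletal muscle it clears organelles in contracting fibres, and it rises with fasting, denervation and other forms of atrophy. FoxO factors and TFEB each switch on genes of the pathway, FoxO also those of the muscle ubiquitin ligases. Akt restrains FoxO, and mTORC1 restrains TFEB.

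The libraries held 19181208 to 30942818 estimated counts, with a median of 26091234. Markers of skeletal muscle fibres such as Acta1 and Ckm summed to 79488 to 100586 CPM in the 17 libraries. CPM are counts relative to library size after TMM scaling (trimmed mean of M values). Transcripts of Hand2 itself had 21 to 502 rounded estimated counts in Hand2 muscles (median 58), against 2 to 24 in empty-vector muscles (median 10.5). The log2 fold change was 3.63 ± 0.57 (SE), with an adjusted p of 0.124 in edgeR's quasi-likelihood test. The rounded counts of Hand2, which are not scaled for depth, overlapped between the groups. Immediate-early genes summed to 2580 and 1388 CPM in empty-vector females 3 and 4, against at most 592 CPM in every other animal. Some of the results that touch those females are also given without empty-vector females 3, 4 and 5, a set chosen with earlier results of these data known.

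Of the 10 genes, Ctsl and Lamp2 were lower in males than in females past the test, and none differed between vectors past the test. Of all genes tested, 5.63% passed between the sexes and 0% between vectors. Ctsl and Lamp2 both encode parts of the lysosome itself, the end point of the pathway. Their promoter stretches, 250 bases before to 50 bases after the RefSeq transcription start on GRCm38.p6 (the mm10 build), are shown because they carry the genes that passed. Ctsl lies on the minus strand at chr13:64363214-64370306 in the deposited table, and its promoter window at chr13:64370471-64370770. Lamp2 lies on the minus strand at chrX:38405064-38456455, and its window at chrX:38456411-38456710. The RefSeq start lies 214 bases upstream of the deposited 5′ end for Ctsl and 5 bases upstream for Lamp2. Capitals mark CACGTG, the E-box read by TFEB and by many other factors.
Ctsl: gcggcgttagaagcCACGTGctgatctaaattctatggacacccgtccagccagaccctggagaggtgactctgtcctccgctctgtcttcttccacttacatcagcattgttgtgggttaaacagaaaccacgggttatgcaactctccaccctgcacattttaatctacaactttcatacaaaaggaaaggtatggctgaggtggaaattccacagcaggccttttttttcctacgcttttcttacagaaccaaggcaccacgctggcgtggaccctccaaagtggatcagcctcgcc
Lamp2: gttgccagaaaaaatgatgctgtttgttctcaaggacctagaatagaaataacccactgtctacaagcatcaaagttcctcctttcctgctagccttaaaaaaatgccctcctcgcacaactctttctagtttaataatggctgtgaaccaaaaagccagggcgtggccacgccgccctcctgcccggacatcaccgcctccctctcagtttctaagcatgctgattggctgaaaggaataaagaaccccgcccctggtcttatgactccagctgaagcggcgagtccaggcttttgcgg

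The longer form TCACGTGA, which contains CACGTG and is the core of the element through which TFEB binds lysosomal genes, was searched on both strands of the RefSeq windows. So were CACGTG and GTAAACA, a form of the core of FoxO sites, of which other forms were not searched. Windows were at hand for 8 of the 10 genes, all but Map1lc3a and Becn1. CACGTG was found in the windows of Ctsl, with its first base at position -236 from the start, and of Bnip3, at position -108; 7.15% of 32851 mouse promoter windows of the same length hold it. Neither TCACGTGA nor GTAAACA was found in a window of the 8 genes, and 0.974% and 3.65% of all windows hold them. These are matches of letters, not measured binding.

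Levels per transcript length ranked the cargo receptor Sqstm1 first, at 340 ± 24.2 CPM per kilobase (mean ± SD, n = 17). It was followed by Map1lc3a at 252 ± 24.2, Bnip3 at 188 ± 24.7, Map1lc3b at 122 ± 11.7 and Ctsl at 95.8 ± 17.4 CPM per kilobase. The ranges of mean ± SD stayed apart between neighbours down to Map1lc3b, and those of Map1lc3b and Ctsl met. Lamp2, Tfeb and Gabarapl1, at 58.6 ± 4.61, 58.5 ± 6.91 and 53.5 ± 8.62 CPM per kilobase, did not differ beyond their spread. Becn1 at 39.9 ± 1.99 and Ulk1 at 34.2 ± 4.45 CPM per kilobase came last, and their ranges met. The place of Becn1 and Lamp2 depends on the transcript counted, since their curated transcripts give 23.3 to 140 CPM per kilobase for Becn1 and 35.5 to 72.4 for Lamp2.

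**Figure D1:**
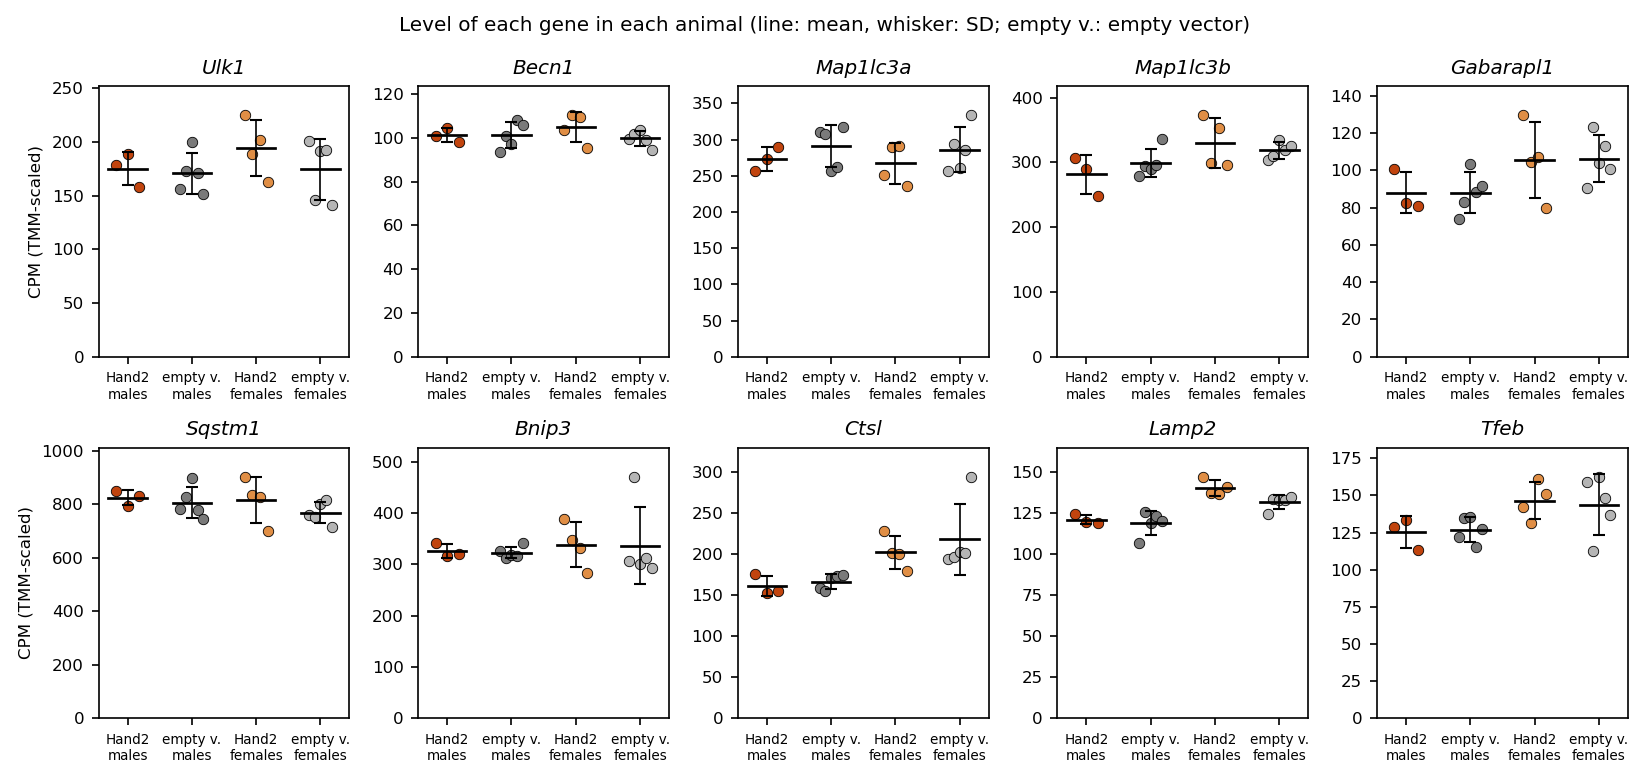
Level of each of the 10 genes in each animal, in TMM-scaled CPM on axes that start at 0. Points are animals (Hand2 males 3, empty-vector males 5, Hand2 females 4, empty-vector females 5), lines are means and whiskers are SD; all 8 males lie below all 9 females for Ctsl, whereas the vector groups overlap for every gene.

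The vector comparison asks whether muscles of Hand2 animals differ from those of empty-vector animals. By edgeR's quasi-likelihood test with sex as a term, 0 of the 10 genes passed an adjusted p of 0.05 over 13965 genes tested, and 0 of all genes did (0% called; 1 gene by DESeq2 and 0 by limma-voom). At an unadjusted p under 0.05 the count was also 0 of 10, against 5.05% of all genes, and DESeq2 and limma-voom called 0 of the 10. Log2 fold changes ran from -0.10 to 0.10 with a median of 0.01, beside a median of -0.0041 over all genes tested. All 95% intervals lay between -0.24 and 0.28, a change of -15.4% to 21.5%. Of the estimates 6 were above 0 and 4 below it; with upper-quartile scaling those of Map1lc3b and Gabarapl1 were above 0 as well. No gene had groups that did not overlap, against 0.0215% of all genes.

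Ulk1 (chr5:110784489-110810081), the kinase that starts autophagosome formation and is switched off by mTORC1, had 158, 188 and 225 CPM as lowest, median and highest of the 7 Hand2 muscles. The 10 empty-vector muscles had 142, 172 and 201 CPM. Of the Hand2 muscles 2 lay above every empty-vector muscle, and the log2 fold change was 0.10 ± 0.09 (SE; adjusted p = 0.924 by edgeR). Becn1 (chr11:101288267-101302267), the scaffold of the lipid kinase complex that nucleates the membrane, had 95.6, 104 and 110 CPM in Hand2 muscles. It had 93.6, 100.3 and 108 CPM in empty-vector muscles, with a log2 fold change of 0.04 ± 0.04 (adjusted p = 0.935 by edgeR). The groups covered nearly the same range. Becn1 shares its 3′ end with Cntd1 on the other strand, which averaged 8.31 estimated counts, and Gabarapl1 overlaps 1700101I11Rik on the other strand, at 12.0; without strand such reads cannot be told apart.

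Map1lc3a (chr2:155276364-155278073), one of the LC3 proteins that are joined to lipid on the growing membrane, had 236, 273 and 291 CPM in Hand2 muscles. In empty-vector muscles it had 256, 289 and 334 CPM. Its estimate, -0.10 ± 0.06 (adjusted p = 0.921 by edgeR), was the lowest of the 10, and 3 Hand2 muscles lay below every empty-vector muscle. Map1lc3b (chr8:121590468-121598047), the LC3 form most used as an autophagosome mark, had 248, 298 and 373 CPM in Hand2 muscles, against 278, 306 and 337 CPM in empty-vector muscles. Both the highest and the lowest animal were in the Hand2 group, and the log2 fold change was -0.01 ± 0.06 (adjusted p = 0.990 by edgeR). Gabarapl1 (chr6:129533192-129542331), an ATG8 family member raised by FoxO in atrophying muscle, had 80.0, 100.7 and 130 CPM in Hand2 muscles. It had 73.6, 96.0 and 123 CPM in empty-vector muscles, with a log2 fold change of -0.01 ± 0.09 (adjusted p = 0.998 by edgeR).

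Sqstm1 (chr11:50200152-50210790) encodes p62, which ties ubiquitinated cargo to LC3. It had 699, 832 and 904 CPM in Hand2 muscles and 717, 780 and 900 CPM in empty-vector muscles. The Hand2 group held both the highest and the lowest animal, and the log2 fold change was 0.06 ± 0.05 (adjusted p = 0.924 by edgeR). Bnip3 (chr7:138890836-138909506), a receptor on mitochondria that is a FoxO3 target in muscle, had 283, 332 and 388 CPM in Hand2 muscles. In empty-vector muscles it had 293, 315 and 471 CPM, the highest being female 2, and the log2 fold change was 0.01 ± 0.08 (adjusted p = 0.994 by edgeR).

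Ctsl, the lysosomal cysteine protease cathepsin L, had 152, 179 and 227 CPM in Hand2 muscles, against 155, 184 and 294 CPM in empty-vector muscles. Its log2 fold change was -0.08 ± 0.08 (adjusted p = 0.935 by edgeR). Lamp2, a membrane protein that lysosomes need to fuse with autophagosomes, had 119, 137 and 147 CPM in Hand2 muscles and 107, 125 and 135 CPM in empty-vector muscles. It was the gene with most Hand2 animals above the other group, 4 of 7, all of them females, and its log2 fold change was 0.06 ± 0.04 (95% interval -0.01 to 0.14; adjusted p = 0.921 by edgeR). Tfeb (chr17:47737037-47792416), the factor that drives lysosomal genes when mTORC1 is off, had 113, 134 and 161 CPM in Hand2 muscles. It had 112, 135 and 163 CPM in empty-vector muscles, and its log2 fold change was 0.01 ± 0.07 (adjusted p = 0.995 by edgeR).

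Within each sex the vectors were compared in a model of 4 groups. In females 0 of the 10 genes passed by edgeR's adjusted p (0% of all genes called) and 0 at an unadjusted p under 0.05 (5.9% of all genes), and the intervals ran from -0.33 to 0.40 on the log2 scale. In males 0 passed (0% called), 0 at an unadjusted p under 0.05 (2.84%), with intervals from -0.30 to 0.31. The effect in males minus that in females gave 0 calls (0% called), 0 at an unadjusted p under 0.05 (3.39%), with intervals from -0.49 to 0.41. DESeq2 and limma-voom called 0 of the 10 genes in these 3 comparisons too; over all genes DESeq2 called 7 in females, 1 in males and 0 for the difference, and limma-voom 0 in each. The smallest p was that of Lamp2 in females, with a log2 fold change of 0.09 ± 0.05 (unadjusted p = 0.0797, adjusted p = 0.857 by edgeR). Lamp2 had 147, 137, 137 and 141 CPM in the 4 Hand2 females, against 124, 133, 133, 133 and 135 CPM in the 5 empty-vector females. All 4 Hand2 females lay above all 5 empty-vector females, as for 1 of the 10 genes, beside 1.65% of all genes whose females do not overlap; the males of both groups mixed.

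**Figure D2:**
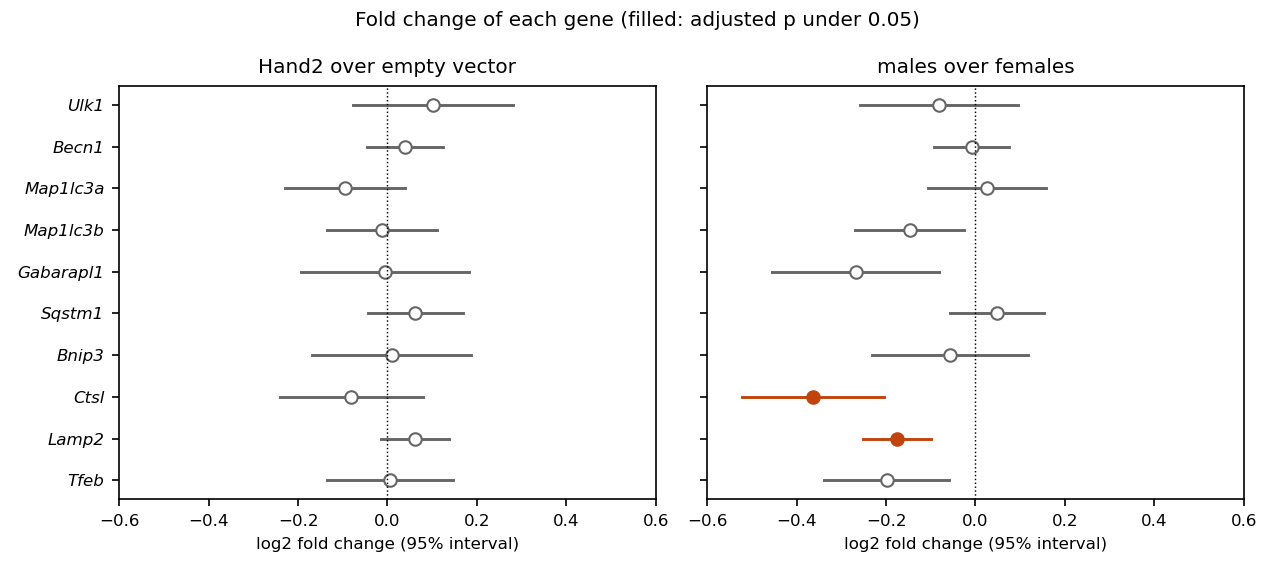
Log2 fold change of each gene with its 95% interval, Hand2 over empty vector on the left (7 against 10 animals) and males over females on the right (8 against 9). Filled points passed an adjusted p of 0.05: none on the left, Ctsl at -0.36 and Lamp2 at -0.18 on the right.

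The sex of the animals, which the labels give for each library, separated some of the 10 genes. With vector as a term, 2 of the 10 passed in males against females by edgeR's quasi-likelihood test, both lower in males, beside 5.63% of all genes called and 2.72% called lower. At an unadjusted p under 0.05 the count was 5 of 10, all lower in males, beside 21.6% of all genes. Over all genes 406 were called higher and 380 lower, a split of 514 and 270 with upper-quartile scaling. The median log2 fold change of the 10 genes was -0.11, beside 0.00058 over all genes.

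Ctsl had 175, 152 and 155 CPM in the 3 Hand2 males and 158, 155, 171, 173 and 174 CPM in the 5 empty-vector males. It had 227, 201, 199 and 179 CPM in the 4 Hand2 females and 193, 197, 202, 201 and 294 CPM in the 5 empty-vector females. Every male lay below every female, the highest male at 175.3 and the lowest female at 179.4 CPM, and it was the only gene of the 10 without overlap between the sexes, beside 0.845% of all genes. Ctsl averaged 164 ± 10.0 CPM in males and 211 ± 33.7 CPM in females (SD, n = 8 and 9). The log2 fold change was -0.36 ± 0.08 (SE; 95% interval -0.52 to -0.20; adjusted p = 0.00824 by edgeR). Empty-vector female 5 stood at 294 CPM, and without it the log2 fold change was -0.29 (adjusted p = 0.00218 by edgeR).

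Lamp2 had 124, 119 and 119 CPM in the 3 Hand2 males and 107, 126, 119, 123 and 120 CPM in the 5 empty-vector males. The females are given above, and 6 of 8 males lay below all of them; the lowest female, empty-vector female 1, fell among the males. Lamp2 averaged 120 ± 5.81 CPM in males and 135 ± 6.28 CPM in females (SD, n = 8 and 9), with a log2 fold change of -0.18 ± 0.04 (95% interval -0.25 to -0.10; adjusted p = 0.00771 by edgeR). Lamp2 is an X-linked gene and Ctsl is autosomal. Without empty-vector females 3, 4 and 5, Ctsl remained past the threshold at -0.29 (adjusted p = 0.0159 by edgeR), and Lamp2 did not, at -0.17 (adjusted p = 0.0643). With fewer animals neither passed, although the signs stayed: edgeR gave log2 fold changes for Ctsl and Lamp2 of -0.33 and -0.22 in Hand2 animals alone, -0.39 and -0.15 in empty-vector animals alone, -0.21 and -0.14 at 22 months, and -0.42 and -0.19 at 23 months, with adjusted p from 0.0593 to 0.919.

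The 3 others with an unadjusted p under 0.05 were Gabarapl1, Tfeb and Map1lc3b, and none passed the adjustment. Gabarapl1 had 73.6, 85.5 and 103 CPM as lowest, median and highest in males and 80.0, 104 and 130 CPM in females, with a log2 fold change of -0.27 ± 0.09 (adjusted p = 0.0865 by edgeR). It passed in DESeq2 (adjusted p = 0.0458), and by edgeR without Hand2 female 5 (-0.31, adjusted p = 0.0251). Gabarapl1 passed in only 1 of 17 repeats that left out 1 animal and in 1 of 11 other alternatives. By edgeR its adjusted p was 0.115 with upper-quartile scaling and 0.165 with an age term. Without empty-vector females 3, 4 and 5 it was 0.242 by edgeR. Tfeb had 113, 128 and 135 CPM in males and 112, 148 and 163 CPM in females, with a log2 fold change of -0.20 ± 0.07 (adjusted p = 0.0872 by edgeR). The males of Tfeb lay within the range of the females, whose lowest animal was empty-vector female 2, and without that female the log2 fold change was -0.24 (adjusted p = 0.0127 by edgeR). Tfeb passed in only 1 of 17 repeats that left out 1 animal and in 0 of 11 other alternatives. Map1lc3b had 248, 292 and 337 CPM in males and 296, 319 and 373 CPM in females, with a log2 fold change of -0.15 ± 0.06 (adjusted p = 0.144 by edgeR). Of its males 5 of 8 lay below every female.

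The remaining 5 genes spread about 0 in the comparison of sexes. Log2 fold changes of males over females were -0.08 ± 0.08 for Ulk1, -0.01 ± 0.04 for Becn1, 0.03 ± 0.06 for Map1lc3a, 0.05 ± 0.05 for Sqstm1 and -0.06 ± 0.08 for Bnip3, with edgeR's adjusted p from 0.616 to 0.928. Becn1 was the tightest of them, at 101 ± 4.86 CPM in males and 102 ± 5.51 CPM in females (SD, n = 8 and 9). Its interval, -6.16% to 5.31%, was the narrowest of the 5, while that of Ulk1 ran from -16.4% to 6.80%.

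Markers of slow fibres and of some other cell types also differed between the sexes. All 7 slow fibre markers were lower in males and passed edgeR's test; they summed to 135 to 326 CPM in males, against 282 to 1456 CPM in females. Of 5 adipocyte markers, 4 passed, all lower in males, with sums of 9.01 to 30.3 CPM in males and 22.4 to 67.6 CPM in females, and 0 passed without empty-vector females 3, 4 and 5, although the log2 fold changes of those 4 markers then were -1.39 for Adipoq, -1.31 for Plin1, -1.41 for Cidec and -1.58 for Lep, against -1.22, -1.29, -1.60 and -1.73 in all animals. Of 16 macrophage markers, whose cells are rich in cathepsins, 0 passed by edgeR (1 at an unadjusted p under 0.05), DESeq2 or limma-voom, with sums of 94.6 to 258 CPM in males and 136 to 228 CPM in females. Of 8 fibroblast and 5 endothelial markers 0 passed by edgeR, with 1 and 2 at an unadjusted p under 0.05, and DESeq2 and limma-voom each called 1 endothelial marker. No marker gene was at 0 in all 17 animals. The part of slow fibres and adipocytes in the levels of Ctsl and Lamp2 was not tested; in whole muscle, more cells of a type and more RNA per cell cannot be told apart.

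Around the 10 genes, 8 lists of other pathway genes held 148 genes with a row, of which 146 were tested; Atg4a and Wdr45b were listed at 0. Between vectors 0 of the 146 passed by edgeR, DESeq2 or limma-voom, and 7 had an unadjusted p under 0.05 by edgeR, which 5.05% of all genes had. Of these 7, Atg2a, a lipid transfer protein of the growing membrane, averaged 57.6 CPM in Hand2 muscles and 52.4 CPM in empty-vector muscles, and Atp6v1b2, a subunit of the proton pump, 91.0 CPM in Hand2 muscles and 100.1 CPM in empty-vector muscles (adjusted p = 0.921 for both by edgeR). In males against females 12 of the 146 passed, or 8.22%, of which 2 were higher and 10 lower in males, against 5.63% of all genes. The median log2 fold change of the 146 genes was -0.03. With upper-quartile scaling 3 were called higher and 5 lower, beside 514 higher and 270 lower of all 13965 genes tested. Without empty-vector females 3, 4 and 5 the count was 4, namely Sesn1, Atp6ap2, Atp6v1g1 and Optn, beside 291 of all 14060 genes tested. Of the 12, Sesn1, Atp6ap2, Atp6v1g1 and Snap29 passed in all 17 repeats that left out 1 animal.

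Of 22 upstream regulators 3 passed between the sexes, beside 5.63% of all genes called, all lower in males: Sesn1, a sestrin that restrains mTORC1, at -1.04 ± 0.13, Ddit4, a stress-induced brake on mTORC1, at -2.95 ± 0.75, and Akt2, the insulin-responsive kinase upstream of FoxO, at -0.18 ± 0.05 (log2 ± SE; adjusted p = 0.000131, 0.0354 and 0.0403 by edgeR). Sesn1 ran from 33.6 to 49.8 CPM in males and from 60.1 to 115 CPM in females, without overlap, beside 0.845% of all genes. Ddit4 ran from 8.48 to 39.1 CPM in males and from 10.5 to 522 CPM in females, so the sexes overlapped. Without empty-vector females 3, 4 and 5, Ddit4 stood at -1.37 (adjusted p = 0.415 by edgeR), and Sesn1 at -0.95 (adjusted p = 0.00188). Foxo3 did not pass, at -0.76 ± 0.24 (adjusted p = 0.0776 by edgeR), with 4.12 ± 0.80 CPM in males and 7.01 ± 3.50 CPM in females (SD, n = 8 and 9).

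Counts of 1 or 2 in the other lists, where reported, are given beside the same 5.63% of all genes, and nothing is read from them about a list. Among lysosomal genes, 2 of 28 for the membrane and acidification passed, both lower in males: Atp6ap2 at -0.31 ± 0.05 and Atp6v1g1 at -0.18 ± 0.03 (adjusted p = 0.00109 and 0.00451 by edgeR). Atp6ap2, an accessory subunit of the pump that like Lamp2 is X-linked, averaged 29.0 ± 1.84 CPM in males and 35.7 ± 2.27 CPM in females (SD, n = 8 and 9). The sexes did not overlap, with 25.6 to 30.9 CPM in males and 33.1 to 39.8 CPM in females. Those of Atp6v1g1 did not either, with 164 to 191 CPM in males and 194 to 211 CPM in females, beside 0.845% of all genes. Of 12 proteases other than Ctsl, 1 passed, the tripeptidyl peptidase Tpp1 at -0.17 ± 0.04 (adjusted p = 0.0261). Among 25 other hydrolases the acid glucosidase Gaa missed the threshold, at -0.12 ± 0.04 (adjusted p = 0.0548 by edgeR). The count of those hydrolases that passed is not reported here. Of the log2 fold changes of those hydrolases 14 were above and 11 below 0, with a median of 0.02. Of the 28 membrane and acidification genes 22 were below 0, with a median of -0.05. Upper-quartile scaling put the median over all genes at 0.03, against 0.00058 with TMM scaling. Counts of signs this near 0 can therefore depend on the scaling, and nothing is read from them.

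Among genes that build and load the autophagosome, 1 of 14 for initiation and nucleation passed, the lipid kinase Pik3c3 at -0.22 ± 0.06 (adjusted p = 0.0476 by edgeR). Of 18 for membrane expansion and conjugation 1 passed, the ATG8 member Gabarap at -0.17 ± 0.05 (adjusted p = 0.0492). Of 15 cargo receptors 2 passed in opposite directions: Fam134b, a receptor for the endoplasmic reticulum, was lower in males at -0.64 ± 0.15, and Optn, a receptor for ubiquitinated cargo, higher at 0.34 ± 0.10 (adjusted p = 0.0241 and 0.0462 by edgeR). Of 12 fusion genes 1 passed, the SNARE protein Snap29, higher in males at 0.33 ± 0.06 (adjusted p = 0.00524).

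**Figure D3:**
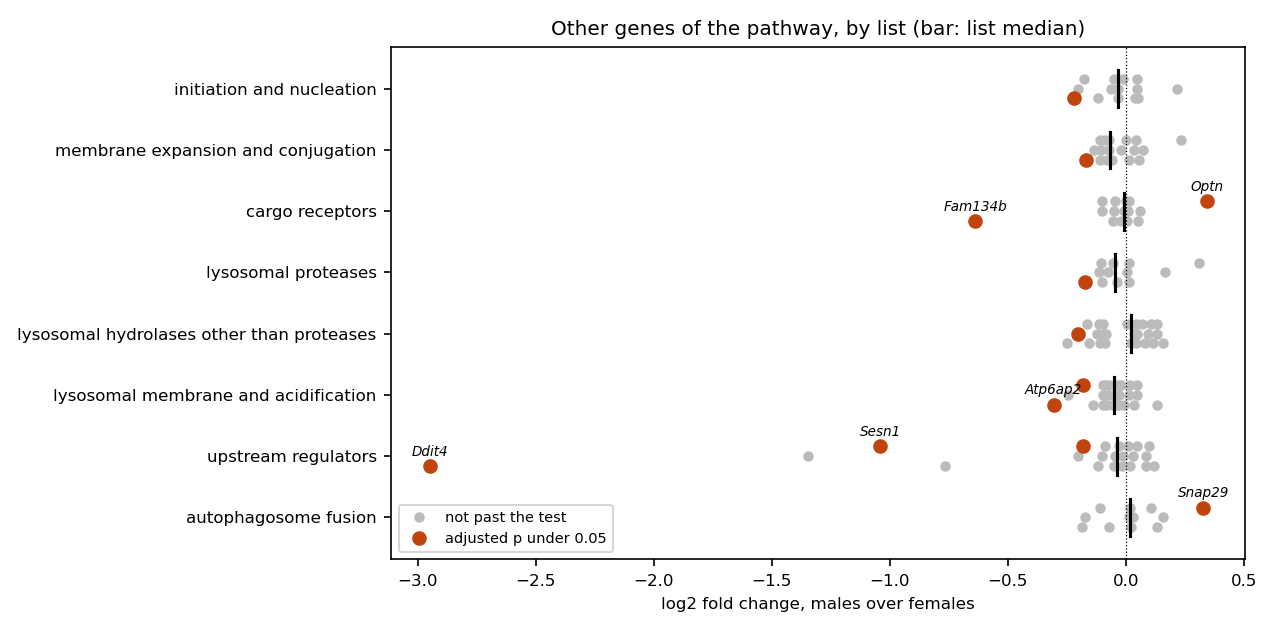
Log2 fold change, males over females, of the 146 tested genes of the 8 pathway lists, 1 point a gene, with the list median as a bar. Coloured points passed an adjusted p of 0.05 (12 genes, 2 higher and 10 lower in males), with names beyond 0.3 in size, and Ddit4 and Sesn1 lie farthest to the left among them.

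The ubiquitin ligases of atrophy, which FoxO raises together with the autophagy genes, were compared with the 10 genes. Trim63 (MuRF1) was lower in males at -0.94 ± 0.22 (adjusted p = 0.0240 by edgeR), with 253 ± 49.5 CPM in males and 486 ± 191 CPM in females (SD, n = 8 and 9), and at -0.61 (adjusted p = 0.140) without empty-vector females 3, 4 and 5. Fbxo32 (atrogin-1) did not pass at -0.32 ± 0.16 (adjusted p = 0.279), with 547 ± 59.3 CPM in males and 685 ± 236 CPM in females. Between vectors neither passed, at 0.01 ± 0.22 for Trim63 and 0.14 ± 0.17 for Fbxo32 (adjusted p = 0.998 and 0.943 by edgeR).

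Animals of 1 group differed from each other more for some of the 10 genes than for others. After vector and sex were taken out, the SD of log2 CPM over animals was 0.06 for Lamp2 and 0.07 for Becn1, and 2.45% and 5.44% of all genes tested had a smaller one. It was 0.19 for Bnip3, 0.19 for Ulk1 and 0.21 for Gabarapl1, beside a median of 0.21 over all genes. All 10 genes stood high in mean log2 CPM, above 87.3% (Gabarapl1) to 99.0% (Sqstm1) of genes tested. Their SD was not compared with that of genes at like levels. Hand2 female 1 was the highest animal for 5 genes (Ulk1, Map1lc3b, Gabarapl1, Sqstm1 and Lamp2), and Hand2 female 5 and empty-vector male 6 were each the lowest for 3.

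Whether the genes vary together was read from log2 CPM centred on the 4 vector-by-sex groups, over 17 animals. Of 65 relations, 45 between the 10 genes and 20 with Fbxo32 and Trim63, 1 passed and 11 had an unadjusted p under 0.05. Between the 10 genes 31 correlations were positive and 14 negative, and 0 passed by the permutation test in all 17 animals. The relation that passed was that of Ctsl with Fbxo32, with Pearson's r of 0.64 (p = 0.00069, adjusted p = 0.0448, permutation test with 100000 resamples) and Spearman's rho of 0.73 (p = 0.00088, adjusted p = 0.0572). Without the 2 animals farthest from the median of Ctsl, empty-vector female 5 and Hand2 female 1, r was 0.56. It passed in 5 of 17 repeats with 1 animal left out, with r from 0.59 to 0.77, so the call rests on single animals while r does not change sign. Without empty-vector females 3, 4 and 5 this relation had an r of 0.80 and missed the threshold (adjusted p = 0.0624, permutation test). In those animals 3 other relations passed it, 1 of them between 2 of the 10 genes. These were Gabarapl1 with Ctsl at r of 0.84, Ctsl with Trim63 at 0.82 and Gabarapl1 with Trim63 at 0.86 (adjusted p = 0.0477, 0.0477 and 0.0318, permutation test), whose r in all 17 animals was 0.36, 0.29 and 0.67. The highest r was that of Ulk1 with Sqstm1, 0.75 (p = 0.0016, adjusted p = 0.0520, permutation test), with rho of 0.75 (p = 0.00232, adjusted p = 0.0754), and 0.65 without the 2 animals farthest from the median of Ulk1. Gabarapl1 with Bnip3 gave r of 0.65 and Sqstm1 with Trim63 gave r of 0.67 (adjusted p = 0.0936 for both, permutation test). All of these values come from the same libraries and share their depth and scaling.

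**Figure D4:**
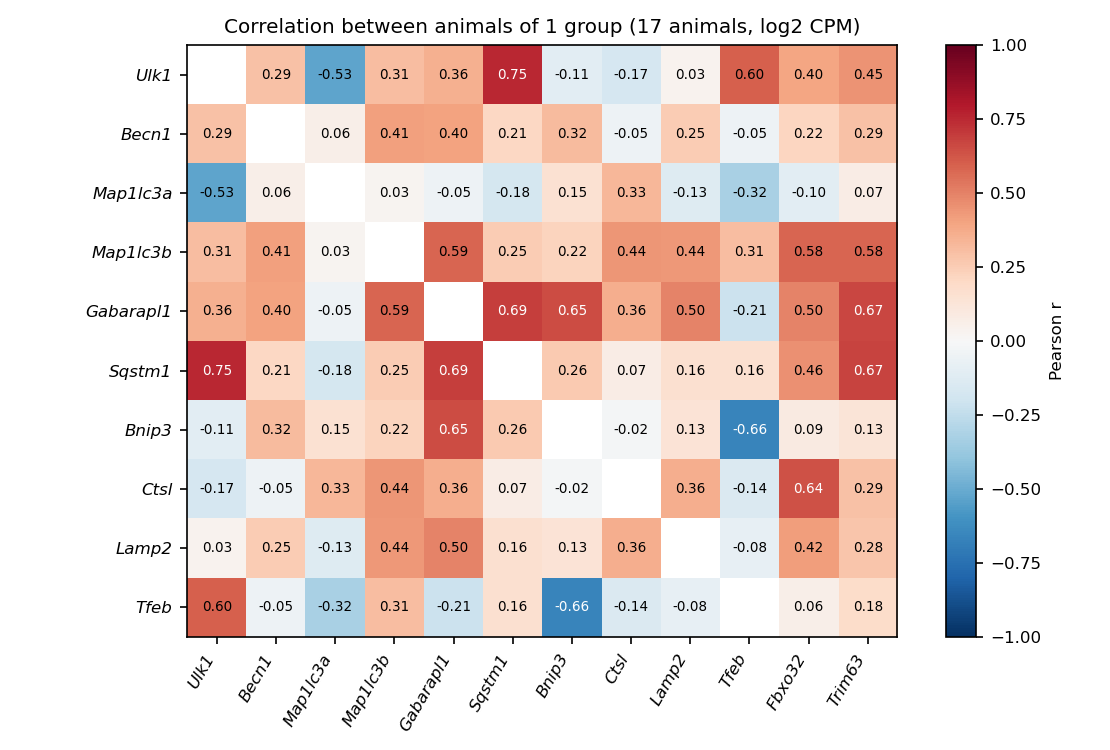
Pearson's r of log2 CPM between genes over 17 animals, centred on vector-by-sex group means, with r printed in each cell. Rows are the 10 genes and columns the 10 genes, Fbxo32 and Trim63; only Ctsl with Fbxo32 (0.64) passed an adjusted p of 0.05, and Ulk1 with Sqstm1 has the highest r, 0.75.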

How the data were processed

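RNA of EDL muscle from 17 mice was made into libraries with TruSeq v2 reagents, per the labels' protocols, and mapped to mm10, per the submitters' processing notes. Aligner, counter and use of strand were not given in the sources used here. For each gene the authors deposited estimated counts without scaling for depth, per the file headers, and these were used, rounded to whole numbers. Their 17 normalized log2 columns, 1 per sample, were not used. The table has 36172 rows: 16061 hold only 0, and 454 with a repeated symbol were treated as separate genes.

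Samples were grouped by the vector in their labels, and replicates numbered in accession order. Per gene, the 2 most alike libraries differed by a mean chi-square of 7.885, so none was counted as a repeat. edgeR 4.0.16 (R 4.3.3) tested 13965 genes left by filterByExpr, among them all 10 described, with TMM scaling and robust quasi-likelihood F tests. P-values were adjusted by Benjamini-Hochberg over all genes, at 5%. The SE is the log2 fold change divided by the square root of F. Vector and sex came from 1 model with both terms; effects within a sex and their difference came from 4 vector-by-sex groups. CPM per kilobase used the median length of curated RefSeq transcripts in GENCODE. For correlations, log2 CPM had 2 as prior count. Alternatives were DESeq2 1.42.0, limma 3.58.1 (voom with quality weights), upper-quartile scaling, no filter, an age term, the title number as block, other sets of animals and a prior count of 0.5. The procedure was also run on simulated data, with fold changes larger than those found for the 10 genes. The outcome of that run is not reported here. Promoter windows are RefSeq's, on GRCm38.p6.

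All 10 genes are named whatever their values, and from each pathway list those past the threshold, up to 4 by smallest p between sexes and up to 2 between vectors. These genes and all lists were chosen with earlier results of these data known. Vamp7 and Hbb-bt were not matched to a row, and the value of 1 listed gene is not reported here. Red blood cell markers, 3 matched, gave no call in either comparison. Intervals are for the fold change and rest on the spread between animals, and libraries carried no molecular identifiers.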

Additional observations from a re-analysis of the deposited data

Results flagged for a closer look

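On log2 CPM, 30 groups of 4 or 5 animals were tested (10 genes in 3 groups). Of these, 3 held an animal far from the rest of its group, and chance alone flags about 1 in 20 groups. All were empty-vector females, and Dixon's limit for 5 animals is a gap of 0.71 of the range. Bnip3 reached 471 CPM in empty-vector female 2, a gap of 0.872 of the group's range. Ctsl reached 294 CPM in empty-vector female 5, a gap of 0.894. Lamp2 was lowest in empty-vector female 1, at 124 CPM, a gap of 0.816. The same empty-vector female 5 had the highest summed adipocyte markers of all animals, 67.6 CPM. Hand2 female 2 had 65.5 CPM of those markers and 201 CPM of Ctsl. The part of adipocytes in the Ctsl level of empty-vector female 5 was not tested.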

How the results depend on the processing

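No gene of the 10 passed between vectors under any alternative run, and Ctsl and Lamp2 stayed lower in males under all of them. They passed in all 17 repeats that left out 1 animal, and the cause of the calls lost below was not tested. Of the 10 genes, those called between sexes numbered 1 without empty-vector replicates 3, 4 and 5, and 0 in 22-month animals, 23-month animals, empty-vector animals or Hand2 animals alone (fewer animals each); the sets by age and the Hand2 set were chosen after the data were seen. Pathway genes called between sexes, counted under alternatives chosen after the data were seen, numbered 19 with DESeq2, 7 with no filter, 6 with an age term, 4 without empty-vector replicates 3, 4 and 5, 0 at 22 months, 4 at 23 months, 3 in empty-vector animals, 0 in Hand2 animals, and 3 to 14 leaving out 1 animal. Over all genes, calls between sexes numbered 1276 with DESeq2, 291 without empty-vector replicates 3, 4 and 5, 24 at 22 months, 413 at 23 months, 118 in empty-vector animals, 68 in Hand2 animals, and 476 to 952 leaving out 1 animal. They numbered 604 with no filter (19819 genes tested) and 530 with an age term. Between vectors DESeq2 called 1, 7 in females and 1 in males; leaving out 1 animal gave 0 to 1, 0 to 1 in females and 0 to 2 in males. Correlations past the threshold numbered 0 with Spearman's rho, 11 without centring, 2 with upper-quartile scaling, 3 without empty-vector replicates 3, 4 and 5 (other relations than in all animals), and 0 to 4 leaving out 1 animal. The numbers in the titles were also tried as a replicate block, chosen after the data were seen. Of 11 pairs of animals with the same number in different groups, 2 had deviations from their group means correlated over 0.1 (range -0.0916 to 0.141), so the block is not taken as a pairing. With it, 282 of all genes, 1 of the 10 (Ctsl) and 3 pathway genes were called between sexes, and 0 between vectors.

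Signs turned only for log2 fold changes that did not pass. Between vectors these were Ulk1 (-0.0503), Becn1 (-0.0072), Sqstm1 (-0.0646), Bnip3 (-0.0352) and Tfeb (-0.0189) at 23 months; Map1lc3b (0.0671), Gabarapl1 (0.0992), Bnip3 (-0.0936) and Ctsl (0.0695) at 22 months; Map1lc3b (0.002) and Gabarapl1 (0.0073) with upper-quartile scaling; Map1lc3b (0.0027), Gabarapl1 (0.0266) and Tfeb (-0.0163) with limma-voom; Map1lc3b (0.0027) and Gabarapl1 (0.013) with no sex term; and Bnip3 with an age term (-0.0501) or without empty-vector replicates 3, 4 and 5 (-0.0791). Leaving out 1 animal gave -0.0494 to 0.0303 for Map1lc3b, -0.0622 to 0.051 for Gabarapl1, -0.0274 to 0.088 for Bnip3 and -0.0353 to 0.0344 for Tfeb. With the title number as block they were Map1lc3b (0.1221), Gabarapl1 (0.2342), Ctsl (0.1132) and Tfeb (-0.0385) between vectors and Becn1 (0.0205) between sexes. The others between sexes were Ulk1 (0.0246), Becn1 (0.0334) and Bnip3 (0.1024) at 23 months, Sqstm1 (-0.0147) at 22 months, Becn1 with upper-quartile scaling (0.0178) or in empty-vector animals alone (0.0178), and Becn1 (0.0115) and Bnip3 (0.0226) with an age term. Leaving out 1 animal gave -0.025 to 0.0034 for Becn1 and -0.0852 to 0.0294 for Bnip3.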
